A study of Rattus norvegicus with 18 samples.

Results

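Among the genes that the L5 dorsal root ganglion (DRG) of the rat already expressed well before injury, a small set stood several times higher after spinal nerve transection (SNT). This set holds 48 of the 26172 Ensembl genes listed. Its members were selected on measured values of the 50 M runs: a mean of at least 500 normalised counts over 3 naive libraries, an SNT mean of 3 to under 8 times the naive mean, and a lowest SNT library above the highest naive library. A normalised count is the number of reads on a gene divided by the size factor of the library. These limits were met by 66 genes, and 18 of them were set aside because the authors' table of exonic and intronic changes gives a symbol for them. For the remaining 48 genes only Ensembl identifiers were at hand, and no file used here pairs these identifiers with a name or a sequence. The copy of the authors' table at hand ends before the identifiers of 25 of the 48, so a symbol could not be looked up for these. The 48 genes are therefore described by their levels. The member with the highest naive level, ENSRNOG00000018087, and the member with the highest ratio, ENSRNOG00000005825, are given by identifier.

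The samples were L5 DRG of male Wistar rats, with the age not given in the sources used here. SNT rats had their L5 spinal nerve cut and the ganglion taken on day 7, and naive rats had no surgery, so the effect of the cut and that of the surgery around it cannot be told apart. Each of 3 SNT and 3 naive samples was a pool of 4 animals, and each poly(A) library was run 3 times, at nominal depths of 17 M, 25 M and (the deepest) 50 M reads. At 50 M, the libraries had 15000789 to 19031166 reads on genes. The 3 runs of a library are technical replicates, so n = 3 libraries per group throughout.

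The DRG holds the cell bodies of the sensory neurons whose axons run in the spinal nerve. Each cell body is wrapped by satellite glial cells, the axons are ensheathed by Schwann cells, and macrophages, fibroblasts and vessels lie between them. Cutting the spinal nerve separates these neurons from their targets. Axotomised neurons are known to lower the transcripts of their normal transmitters and ion channels and to raise those of growth and stress programmes, while satellite glia become reactive and macrophages gather in the ganglion. A gene that is abundant in the naive ganglion and higher after SNT may belong to any of these cells. In bulk tissue, fewer cells of a type and less RNA per cell cannot be told apart, nor can more cells and more RNA per cell.

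The identity of the tissue was checked on marker genes, which could be matched only through the symbols at hand. All 7 matched sensory neuron markers (of 24 listed) were read in every library, with naive means of 203041 for the neurofilament gene Nefh, 43092 for the synaptic gene Snap25 and 16410.3 for the neuropeptide gene Calca. The summed level of the 7 neuron markers ran from 331903 to 380142 normalised counts among naive and from 93189 to 203256 among SNT libraries. SNT 1 stood apart from the other SNT libraries in this sum, with 203256 against 93189 in SNT 2 and 114529 in SNT 3. Of the 6237 genes with a naive mean of at least 500, 423 were under 0.5 times as high in SNT 2 as in SNT 1, and 43 were at least 2 times as high. Of these 43, 25 were outside the 48 genes. The 48 genes also differed between SNT 1 and SNT 2, most of them in the opposite direction to the neuron markers, with SNT 1 lowest in 44.

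The 48 genes were a small, upper fringe of the abundant genes. The limits were met by 1.06% of the 6237 genes with a naive mean of at least 500, whose median ratio of SNT to naive mean was 0.885. A further 178 of these genes had a ratio of 2 to under 3, and only 3 had a ratio of 8 or more. No gene within the limits of level and ratio was lost because its groups overlapped. On the log2 scale the limma estimate for the 48 genes ran from 1.59 to 2.89 with a median of 1.94, beside a median of 0.0095 over all 17930 genes tested and of -0.18 over the abundant genes. All 48 were called higher in SNT, where 29.2% of all genes tested and 26.2% of the abundant genes were called higher at an FDR of 0.1. Likewise, the lowest SNT library was above the highest naive library in all 48 by selection and in 30.8% of all genes tested. These calls rest on the same contrast that chose the genes, so nothing is read from them.

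**Figure D1:**
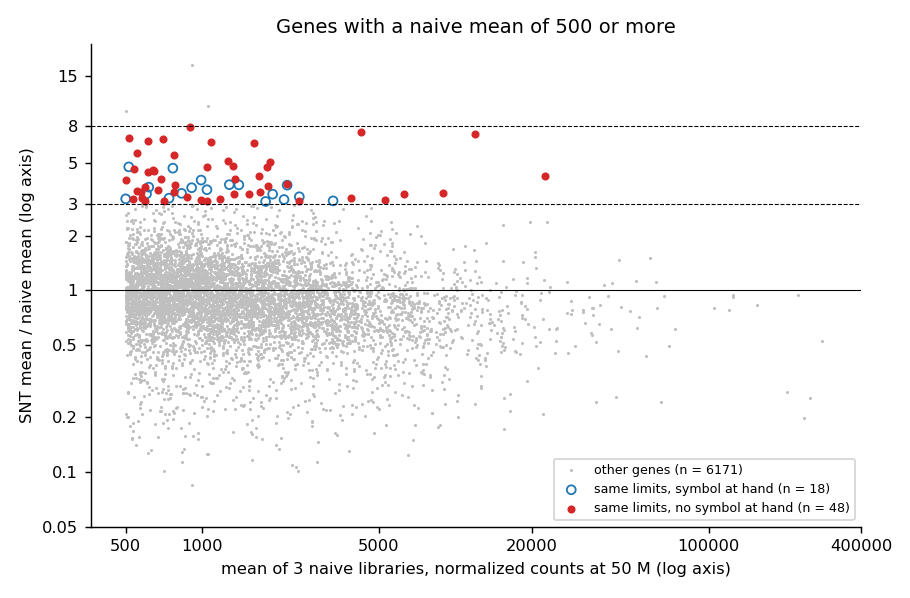
Ratio of the SNT mean to the naive mean (y axis, log scale) against the naive mean in normalised counts at 50 M (x axis, log scale) for the 6237 genes with a naive mean of at least 500. The 48 genes without a symbol at hand (red) and the 18 genes with one (blue circles) lie between the dashed lines at ratios of 3 and 8. Both sets lie above the bulk of the genes, whose median ratio was 0.885.

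Most of the 48 genes were of moderate level and about 4 times higher after SNT. The naive mean ran from 502 to 22698 normalised counts with a median of 1018, and the SNT mean ran from 1694 to 96301 with a median of 4394. A naive mean of at least 1000 was found for 24 members, of at least 2000 for 9, of at least 5000 for 5 and of at least 10000 for 2. The ratio had a median of 3.94, with quartiles of 3.37 and 4.88. It was under 4 in 24 members, at least 5 in 12 and at least 6 in 8. The added level, SNT mean minus naive mean, ran from 1158 to 74324 normalised counts.

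The values just inside and just outside the limits lay close together among the genes without a symbol at hand. The lowest naive means inside were 502, 516 and 536, and the highest outside, among genes that met the other limits, were 496, 489 and 476. The lowest ratios inside were 3.09, 3.09 and 3.10, and the nearest outside were 2.99, 2.98 and 2.96. At the upper limit the gap was wider, with 7.92 and 7.39 inside and 9.64 outside.

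ENSRNOG00000018087 had the highest level of the 48 genes in both groups. Its normalised counts were 23423, 19175 and 25496 in naive 1 to 3 and 61122, 131174 and 96608 in SNT 1 to 3. All 3 SNT libraries were above all naive libraries, and SNT 2 was 2.15 times as high as SNT 1. The means were 22698 ± 3222 (SD, n = 3) in naive and 96301 ± 35027 (SD, n = 3) in SNT libraries, a ratio of 4.24. Without SNT 2 the ratio was 3.47, and without SNT 1 it was 5.02.

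The member next in naive level was also the third in ratio. Its naive libraries had 11990.0, 8946 and 14968 normalised counts and its SNT libraries 55437, 103006 and 100432, a ratio of 7.21. Its lowest SNT library was 3.70 times its highest naive library. These top members weighed heavily in the set: the 3 members with the highest naive level took 39.8% to 42.2% of the reads of all 48 genes in naive libraries and 42.0% to 45.7% in SNT libraries.

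The other members with a naive mean of at least 5000 had ratios near the lower limit. The third in naive level had 9184, 8383 and 9373 in naive and 22908, 37590 and 32143 in SNT libraries, a ratio of 3.44. The fourth, with 6640, 5822 and 6379 in naive and 14726, 25942 and 22929 in SNT libraries, had a ratio of 3.38. The fifth differed in its profile, with 5320, 5521 and 5064 in naive and 16052, 15147 and 18948 in SNT libraries. In the fifth SNT 2 was the lowest SNT library, whereas in the other 4 members of this level it was the highest.

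ENSRNOG00000005825 had the highest ratio. Its normalised counts were 798, 663 and 1222 in naive 1 to 3 and 3956, 11407 and 5898 in SNT 1 to 3. SNT 2 was 1.93 times as high as SNT 3 and 2.88 times as high as SNT 1, and naive 3 was 1.84 times as high as naive 2. The means were 894 ± 292 (SD, n = 3) in naive and 7087 ± 3865 (SD, n = 3) in SNT libraries, a ratio of 7.92. This ratio depended on single libraries, with 5.51 without SNT 2 and 9.70 without naive 3.

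The other members with a ratio of at least 7 were the second and the sixth in naive level. The sixth had 4253, 2859 and 5661 normalised counts in naive and 17038, 45245 and 32116 in SNT libraries, a ratio of 7.39. The steadiest of the high ratios belonged to a member with 526, 505 and 517 in naive and 2879, 3741 and 3973 in SNT libraries. Its ratio was 6.84, and its lowest SNT library was 5.47 times its highest naive library, the widest gap among the 48 genes. The narrowest gap belonged to a member with 580, 327 and 827 in naive and 1233, 2421 and 2335 in SNT libraries, where it was 1.49 times.

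**Figure D2:**
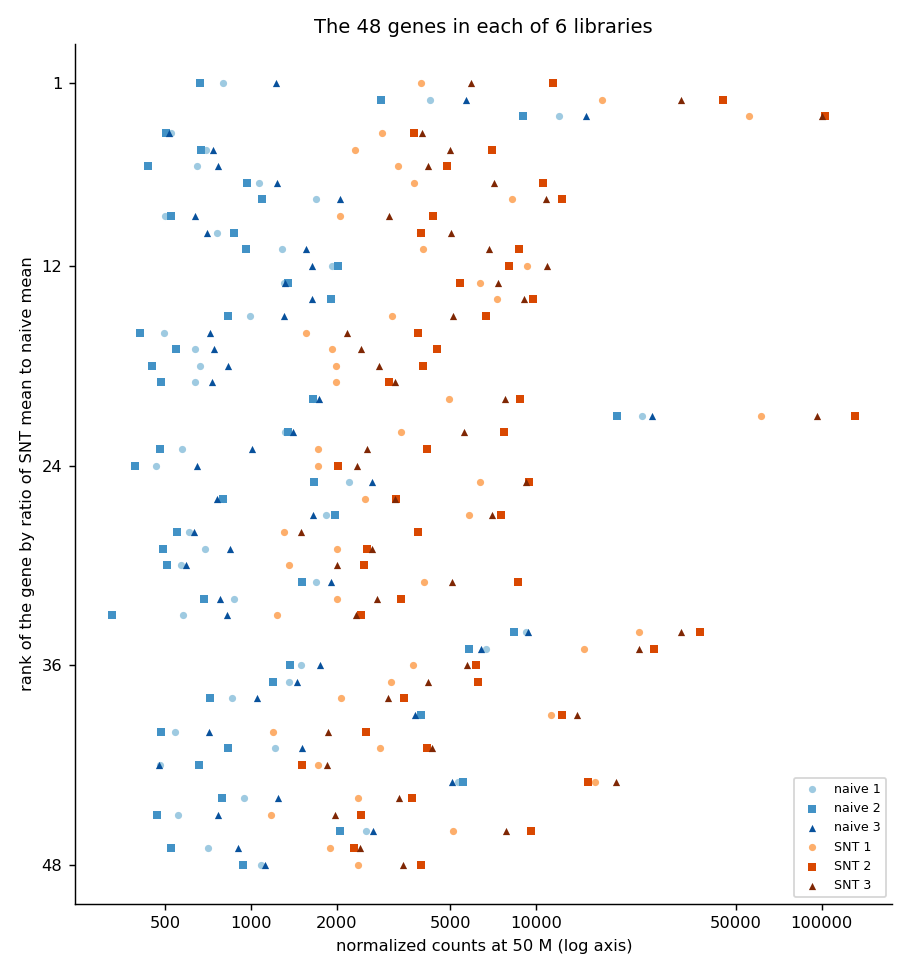
Normalised counts at 50 M (x axis, log scale) of the 48 genes in each of 3 naive (blue) and 3 SNT (orange to brown) libraries, 1 row per gene, ordered by ratio of the means from 7.92 at the top to 3.09 at the bottom. In every row the SNT libraries lie to the right of the naive libraries, and SNT 1 is the lowest SNT library in 44 of 48 rows.

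The distance between the groups was at least 2 times (lowest SNT over highest naive library) in 40 of the 48 genes, with a median of 2.40 times. Taken 1 SNT library at a time against the naive mean, the ratio had a median over the 48 genes of 2.95 in SNT 1, 4.57 in SNT 2 and 4.03 in SNT 3. Over all abundant genes the same medians were 0.915, 0.860 and 0.878. In SNT 1, 27 of the 48 genes were under 3 times the naive mean, compared with 2 in SNT 2 and 2 in SNT 3. Conversely, 5 genes were at least 8 times the naive mean in SNT 2, 1 in SNT 3 and 0 in SNT 1. All 3 SNT libraries were at least 3 times the naive mean in 19 members and at least 2 times in 47. Without SNT 1 the median ratio of the 48 genes was 4.42, with 5 of them at 8 or more. Without SNT 2 it was 3.45, with 10 of them under 3.

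The 48 genes took a larger share of each library after SNT, which follows from their selection and is given as a description. They held 0.573%, 0.491% and 0.648% of the reads on genes in naive 1 to 3 and 1.97%, 3.65% and 3.06% in SNT 1 to 3 at 50 M. The means were 0.570% ± 0.078 (SD, n = 3) in naive and 2.89% ± 0.854 (SD, n = 3) in SNT libraries. Without the 3 members of highest naive level, the shares were 0.296% to 0.374% in naive and 1.14% to 1.98% in SNT libraries. The 3 runs of a library gave nearly the same share, such as 3.63%, 3.65% and 3.65% for SNT 2 at 17 M, 25 M and 50 M.

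**Figure D3:**
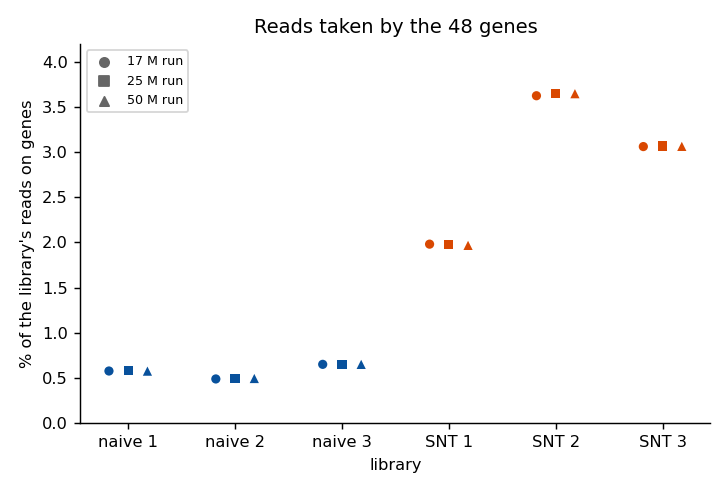
Share of each library's reads on genes that fell on the 48 genes, in percent (y axis, from 0), for 3 naive (blue) and 3 SNT (orange) libraries, with the 17 M, 25 M and 50 M runs of a library as circle, square and triangle. The naive libraries lie between 0.486% and 0.648% and the SNT libraries between 1.97% and 3.65%, a gap that follows from the selection. The runs of a library fall almost on each other.

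The 48 genes varied among SNT libraries in a common order. SNT 1 was the lowest SNT library in 44 of them and the highest in 0, and SNT 2 was the highest in 36 and SNT 3 in 12. Over the 1583 other abundant genes that were called higher in SNT, SNT 1 was the lowest in 84.0% and SNT 2 the highest in 68.8%, so this order was common among them as well. The highest SNT library was 1.23 to 3.02 times the lowest, with a median of 1.72. The naive libraries also shared an order, with naive 2 the lowest in 36 members and naive 3 the highest in 36. In the other abundant genes called higher, naive 2 was the lowest in 58.2% and naive 3 the highest in 50.7%. Both orders at once, SNT 1 below SNT 3 below SNT 2 and naive 2 below naive 1 below naive 3, were seen in 28 of the 48 genes. Both at once were not counted in other genes. The highest naive library was 1.03 to 2.53 times the lowest, with a median of 1.32.

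Relative to the mean, the spread of the 48 genes was wider in SNT than in naive libraries. The spread of other genes was not set beside it. The coefficient of variation over the 48 genes had a median of 26.2% (range 10.2% to 63.7%) in SNT and of 13.9% (range 1.49% to 43.3%) in naive libraries. The gene with the highest coefficient of variation in SNT had 1306, 3843 and 1501 normalised counts in SNT libraries, but 609, 549.7 and 633 in naive libraries. The gene with the highest coefficient of variation in naive libraries was that with 580, 327 and 827, named above for the narrowest gap between groups. A wide spread in one group was thus not always found in the other.

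Across the 48 genes, the log2 ratio of SNT 2 to SNT 1 went with that of naive 3 to naive 2 (Pearson's r = 0.47 and Spearman's rho = 0.40 across 48 genes). Over all 6237 abundant genes the values were 0.51 and 0.64. This is a description across genes that share the same 4 libraries, and genes are not independent replicates.

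**Figure D4:**
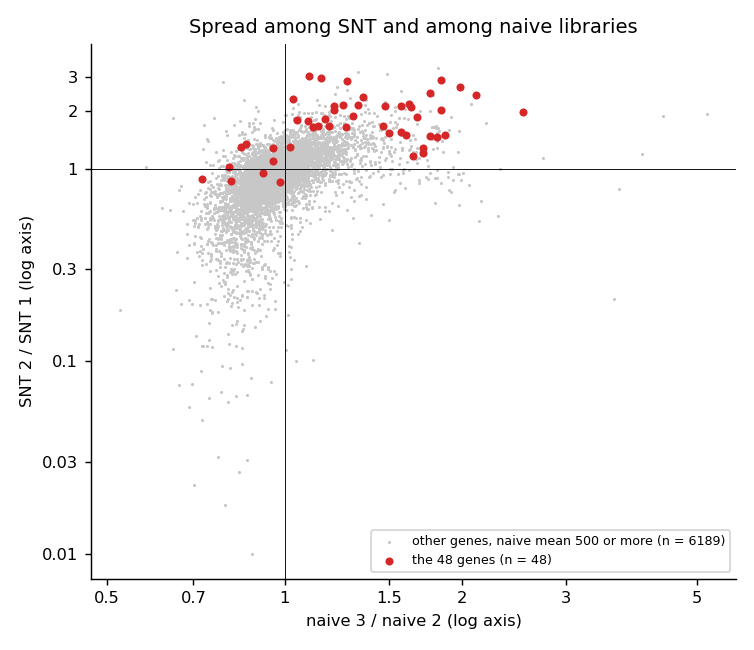
Ratio of SNT 2 to SNT 1 (y axis, log scale) against the ratio of naive 3 to naive 2 (x axis, log scale), in normalised counts at 50 M, for the 48 genes (red) and the 6189 other genes with a naive mean of at least 500 (grey). The 48 genes lie at 0.854 to 3.02 on the y axis and 0.724 to 2.53 on the x axis, most of them in the upper right, and 25 of the grey points lie at 2 or higher on the y axis.

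By their library profile the 48 genes fell along a range, which was split at limits chosen after the values were seen. In 18 genes SNT 2 was at least 2 times SNT 1. Among the other 30, the SNT libraries were within 1.3 times of each other in 7. The remaining 23 lay between. The 18 genes with the steep profile had ratios of 3.11 to 7.92 with a median of 4.56. All 18 had SNT 1 as the lowest SNT library, which the choice of these genes favours. All 18 had naive 3 as the highest naive library, and 16 had naive 2 as the lowest. Their median level relative to the naive mean was 2.93 in SNT 1, 6.39 in SNT 2 and 4.18 in SNT 3. The distance between SNT 1 and SNT 2 is likewise set by the choice of these genes. A ratio of SNT 2 to SNT 1 of at least 2 was found in 37.5% of the 48 genes and in 1.20% of the other abundant genes called higher, most of which had lower ratios. Of the 18 genes within the same limits that carry a symbol, 4 had SNT 2 at least 2 times SNT 1. So did 2 of the 3 abundant genes with an SNT to naive ratio of 8 or more. These sets were not matched to the 48 genes in SNT to naive ratio. Its median was 3.49 in the 18 genes and 3.94 in the 48.

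The 7 genes with the flat profile had ratios of 3.09 to 5.53 with a median of 3.22. Their median level relative to the naive mean was 3.19 in SNT 1, 3.22 in SNT 2 and 3.59 in SNT 3, which are close to each other by the choice of these genes. In 6 of the 7, naive 3 was the lowest naive library, and in 5 SNT 3 was the highest SNT library. The member with the highest ratio of this kind had 758, 870 and 700 normalised counts in naive and 3901, 3957 and 5006 in SNT libraries. Another, of higher level, had 3923, 3930 and 3757 in naive and 11215, 12320 and 13889 in SNT libraries.

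The order of the libraries in the 48 genes was set beside that of the marker and matrix genes. From highest to lowest, the summed sensory neuron markers had the order SNT 1, SNT 3, SNT 2 and naive 2, naive 1, naive 3, the reverse of the most common orders of the 48 genes. Of the 7 matched neuron markers, 0 were called higher and 6 lower in SNT. The naive order of the neuron markers, with naive 3 the lowest and naive 2 the highest, was found in 6 of the 48 genes, and the reverse order in 33. Neither full order was counted in other genes. Ptprc, which encodes the leukocyte surface phosphatase CD45 and was the only one of 20 macrophage markers that could be matched, had 273, 154 and 430.4 normalised counts in naive and 666, 1859.6 and 1056 in SNT libraries. It thus had the same order of libraries as most of the 48 genes. So did the sum of the 12 matched matrix and remodelling genes, with 107157, 85267.5 and 126434 in naive and 171461, 274822 and 251628 in SNT libraries. Col1a1, Col3a1 and Dcn, fibroblast genes and the 3 of 14 fibroblast and vessel markers matched, summed to 45069.7 to 71315 in naive and 101732 to 154362 in SNT libraries, and all 3 were called higher. The 5 of 15 Schwann and satellite cell markers matched summed to 139191 to 236609 in naive and 158624 to 194422 in SNT libraries, and 3 of them were called higher and 0 lower. The fibroblast sum was lowest in SNT 1 (101732) and highest in SNT 3 (154362), just above SNT 2 (153253). The Schwann and satellite cell sum was lowest in SNT 2 (158624) and highest in SNT 3 (194422), unlike most of the 48 genes. In both sums naive 2 was the lowest and naive 3 the highest naive library. No matched marker was at 0. T or NK cell, skeletal muscle and red blood cell markers were not analysed here, since none could be matched. The part of these cell types in the values of the 48 genes was not tested.

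The 18 genes within the same limits that do carry a symbol show the level of known genes in this range. They had ratios of 3.08 to 4.77 with a median of 3.49, and 16 of 18 had SNT 1 as the lowest SNT library. Several encode extracellular matrix or its processing enzymes, but the highest ratios belonged to other genes. Atp2b4 and Mmd, which are not among the matched matrix and remodelling genes, had ratios of 4.77 and 4.70. They had 2297, 2241 and 2836 (Atp2b4) and 3591, 3068 and 4170 (Mmd) in SNT libraries, with SNT 2 the lowest. Fbn1, which encodes the microfibril protein fibrillin, had 1899, 1578 and 2234 normalised counts in naive and 4550.4, 7565 and 7174 in SNT libraries, a ratio of 3.38. Col5a2, a collagen chain, and Mmp2, a matrix metalloproteinase, had ratios of 3.27 and 3.57. Cd44, the hyaluronan receptor, was among the flatter ones, with 8560.3, 10792 and 11332 in SNT libraries and a ratio of 3.10. All 12 matched genes of the 31 on the list of matrix and remodelling genes were called higher in SNT, where 29.2% of all genes tested were. Fbn1, Col5a2 and Mmp2 are among these 12 and also among the 18, so their calls follow from the limits. The list was chosen with earlier results of these data known, so nothing is read from this count. Whether the 48 genes without a symbol at hand hold genes of this kind cannot be read from these files. Of the 48, 23 have an identifier within the range covered by the copy of the authors' table at hand, which does not list them. The other 25 have an identifier beyond its last row, so the symbol criterion could not act on them.

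The 3 read depths gave similar ratios for the 48 genes. The ratio of SNT to naive mean ran from 3.07 to 7.60 with a median of 3.91 in the 25 M runs and from 3.01 to 7.70 with a median of 3.88 in the 17 M runs. All 48 stayed within 3 to under 8 with groups that did not overlap at both depths. These runs read the same libraries that chose the genes, so this largely follows from the selection. The share of all genes with groups apart was not counted at these depths. Compared with 50 M, the ratio of a gene differed by a median of 2.45% at 25 M and 2.21% at 17 M, in either direction. The largest difference was that of ENSRNOG00000005825, with 6.95 at 25 M, 7.65 at 17 M and 7.92 at 50 M. ENSRNOG00000018087 had ratios of 4.21, 4.25 and 4.24 in the same order of runs.

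**Figure D5:**
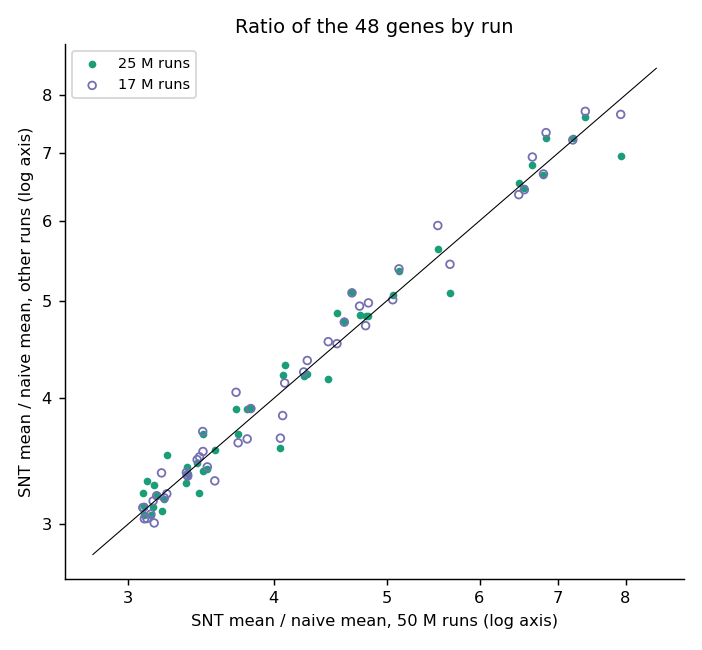
Ratio of SNT to naive mean in the 25 M runs (filled) and 17 M runs (open) on the y axis against that in the 50 M runs on the x axis (both log scale) for the 48 genes, with the line of equal values. The points follow the line from 3.09 to 7.92, and the median gene differed by 2.45% at 25 M and 2.21% at 17 M.

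Whether read depth altered the difference between SNT and naive libraries was tested on the 17 M and 25 M runs, which the selection did not use. For each library the log2 value at 25 M was subtracted from that at 17 M, and limma was used to compare the results of the SNT libraries with those of the naive ones. At an FDR of 0.1, 0 of the 48 genes differed, and 1 of the 16632 genes tested did (0.00601%). At an unadjusted p under 0.05 there was 1 member (2.08%), beside 5.03% of all genes tested. The estimates for the 48 genes ran from -0.14 to 0.14 on the log2 scale with a median of 0.0050, and the lowest adjusted p in limma was 0.969. For ENSRNOG00000018087 the estimate was 0.024 ± 0.021 (SE, n = 3 libraries per group), and for ENSRNOG00000005825 it was 0.11 ± 0.058. No difference between these runs was detected, which does not show that there was none. No other tool was run on this comparison.

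Within a library, the 3 runs differed far less than the libraries of a group. With each value taken relative to the mean of the 6 libraries of its depth, the SD between the runs of a library had a median of 0.035 on the log2 scale and a highest value of 0.137 over the 48 genes and 6 libraries. The SD between SNT libraries at 50 M had a median of 0.41 and was above the highest run SD of the same gene in 48 of 48. Between naive libraries it had a median of 0.21 and was above the highest run SD in 41 of 48. The reads behind these values were ample. The lowest count of any member in any library at 50 M was 325 reads, for which counting error is 5.55% of the value, and at 17 M it was 81 reads. These limits are those of counting alone, because the reads carried no molecular identifiers and may be copies of one molecule.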

How the data were processed

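The deposited signal values were normalised counts, which the authors made by dividing each library's reads per gene by its DESeq size factor, with 1 table per read depth. Per the study's methods, 34-base reads were aligned to Rn5 with Bowtie (up to 1 mismatch), reads with more than 1 location were discarded and reads on exons of Ensembl genes were counted without strand. Reads of near-identical paralogs and of overlapping antisense genes are therefore uncertain. All 18 columns were used, and 100% of values were whole multiples of the value of 1 read, within a tolerance of 1e-06 of a read (largest departure 7.57e-10).

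The members, marker lists and tests were chosen with earlier results of these data known. Ratios are SNT mean over naive mean. limma 3.58.1 in R 4.3.3 was run on log2(normalised count + 1), two-sided, with a mean-variance trend, Benjamini-Hochberg adjustment and an FDR of 0.1, on genes with reads in at least 3 of 6 libraries. The limma script was tested on simulated data. On the recovered reads, edgeR 4.0.16 (10366 genes called) and DESeq2 1.42.0 (9788) were alternatives. Others were pseudocounts of 0.5 and 5, other filters, equal totals, a replicate block, other read depths and leaving out each library. Named members are those with the highest naive mean and the highest ratio, since no table at hand pairs the members with symbols. Other genes are named for comparison and were chosen after their values were seen. Of the glial markers, 1 is not reported here.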

Additional observations from a re-analysis of the deposited data

How the results depend on the processing

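The number of genes that met the limits without a symbol at hand was 48. It was 27 in the 25 M table and 16 in the 17 M table, where 26 and 15 of the 48 still had a naive mean of at least 500. The other 22 and 33 kept their ratio and the gap between groups there, since the limit on level was not scaled to the depth. With libraries scaled to equal totals the number was 68 (43 of the 48 shared), and without any 1 library it was 38 to 69 (38 to 47 shared). The median ratio of the 48 genes was 3.94, was 4.40 with equal totals, and lay between 3.45 and 4.42 without any 1 library. Equal totals moved the median log2 difference of all genes tested from 0.0095 to 0.16, so the members' ratios rose with it.

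At 50 M, limma called 10497 of 17930 genes, 5231 of them (49.8%) higher. With equal totals it called 10565, of which 6602 (62.5%) were higher. The other alternatives gave 8534 to 11490 genes, including 9459 with the replicate block. All 48 genes were called higher in each of these fits, which reuse the libraries that chose the genes, so nothing is read from these calls. For the difference between the 17 M and 25 M runs, 0 of the 48 were called in any of the 10 alternatives, including the replicate block, in which 5 of 16632 genes were called. Same-numbered libraries did not deviate together throughout: over 11307 genes, their deviations from their group means correlated at 0.027, -0.43 and 0.28. Deviations within a group are tied to each other, so these values cannot exclude a pairing by replicate number. With 3 libraries per group, the spread is itself poorly known.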
